A study of Mus musculus and Ictidomys tridecemlineatus with 36 samples.

Results

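The 8 genes described here, *Glul*, *Rlbp1*, *Slc1a3*, *Apoe*, *Aqp4*, *Kcnj10*, *Vim*, and *Clu*, are textbook markers and effectors of mature Müller glia. They were chosen by name, 8 of the 21938 protein-coding genes annotated on the mouse chromosomes, by a rule that uses no measured value. The choice was nevertheless made with earlier results of these data known. Every CUT&RUN peak of 5 targets in P2 mouse retina was collected within 1 kb of any annotated transcription start site (TSS) of each gene, called its promoter peaks, and across the gene body plus 20 kb on each side, called its window.

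Müller glia are the radial glia of the retina and are among the last cells that retinal progenitors make. They take up and recycle glutamate, return the chromophore of visual pigments, and clear potassium and water along their processes. Many of their genes are already active at a lower level in the late progenitors that share their radial shape, and many are known to rise in expression as the glia mature in the weeks after birth. CUT&RUN uses an antibody to direct a nuclease to a histone mark or protein in nuclei, so that the DNA released and sequenced comes from the sites that carry it. H3K4me3 marks promoters that are active or ready for use, H3K27ac marks active promoters and enhancers, and H3K4me1 marks enhancers and promoter flanks. Otx2 and Neurod1 are transcription factors of photoreceptor and bipolar cell development.

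The series held 36 libraries, of which the 20 from mouse were used, made from postnatal day 2 (P2) retina. The other 16 libraries came from P5 retina of the 13-lined ground squirrel (13LGS) and were not used here. The mouse libraries comprised 2 for each of H3K4me3, H3K27ac, and H3K4me1, 8 for Otx2 with antibodies of 2 makers, 4 for Neurod1, and 2 for the IgG control, from 2 biological replicates that each pooled the retinas of 3 animals. No genotype or strain is given for these mice in the labels, no treatment is listed, and all samples were of retina at a single age. Each target had 1 peak list called over all its libraries, so the values below carry no error between replicates and no test was run, and read depth is unknown. Each list gives the fold enrichment of a peak over IgG and a −log10 q-value, and folds were compared between genes or peaks of the same target only.

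The sequences below, read from the GRCm38 genome on the plus strand, are those under the member peaks of Otx2 and Neurod1 that the results turn on. They come from the *Vim* promoter (chr2:13573627-13573926), which had the highest Otx2 fold of the 8 genes, from the promoter (chr14:65968140-65968439) and the downstream element (chr14:66000741-66001040) of *Clu*, the only member with Neurod1 peaks at both kinds of site, from the *Rlbp1* upstream element (chr7:79390376-79390675), and from the *Kcnj10* downstream element (chr1:172392143-172392442), which had the highest Neurod1 fold. Each run is 300 bases around the Otx2 summit, apart from that of *Vim*, which ends just before the gene's first TSS because the summit lies in the transcribed part. Capitals mark TAATCC, a form of the core site of Otx2 and its relative Crx, and CAGATG, a form of the E-box that Neurod1 binds, on either strand (GGATTA and CATCTG are the reverse strand).
Vim promoter: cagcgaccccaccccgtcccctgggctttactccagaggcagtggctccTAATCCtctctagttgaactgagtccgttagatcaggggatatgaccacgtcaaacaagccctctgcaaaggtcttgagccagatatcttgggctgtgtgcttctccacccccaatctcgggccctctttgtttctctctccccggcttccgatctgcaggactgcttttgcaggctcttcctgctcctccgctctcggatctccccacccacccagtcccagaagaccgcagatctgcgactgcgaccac
Clu promoter: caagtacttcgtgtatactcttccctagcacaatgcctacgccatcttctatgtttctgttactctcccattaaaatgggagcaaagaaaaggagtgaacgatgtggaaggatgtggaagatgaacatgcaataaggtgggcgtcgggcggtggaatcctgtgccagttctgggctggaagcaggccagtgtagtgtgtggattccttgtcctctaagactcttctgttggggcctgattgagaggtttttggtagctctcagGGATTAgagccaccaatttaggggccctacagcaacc
Clu downstream element: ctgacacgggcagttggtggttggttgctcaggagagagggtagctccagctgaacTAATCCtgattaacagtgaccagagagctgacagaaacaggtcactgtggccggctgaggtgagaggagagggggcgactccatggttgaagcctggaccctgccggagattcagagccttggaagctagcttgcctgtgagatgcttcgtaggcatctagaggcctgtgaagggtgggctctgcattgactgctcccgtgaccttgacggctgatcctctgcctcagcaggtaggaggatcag
Rlbp1 upstream element: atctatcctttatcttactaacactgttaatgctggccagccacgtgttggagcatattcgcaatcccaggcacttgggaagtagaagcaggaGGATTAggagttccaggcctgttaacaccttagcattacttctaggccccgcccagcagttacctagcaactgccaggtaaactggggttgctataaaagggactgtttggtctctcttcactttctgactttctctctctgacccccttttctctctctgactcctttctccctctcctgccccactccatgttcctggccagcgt
Kcnj10 downstream element: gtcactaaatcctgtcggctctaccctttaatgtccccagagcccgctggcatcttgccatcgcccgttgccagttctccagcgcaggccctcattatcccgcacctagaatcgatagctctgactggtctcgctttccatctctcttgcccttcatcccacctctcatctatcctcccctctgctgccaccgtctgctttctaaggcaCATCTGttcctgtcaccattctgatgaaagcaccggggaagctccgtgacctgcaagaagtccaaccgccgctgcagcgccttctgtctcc

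The runs from *Vim*, *Rlbp1*, and both *Clu* sites each held 1 TAATCC and no CAGATG, and the run from *Kcnj10* held 1 CAGATG and no TAATCC. The *Vim* run does not contain the Otx2 summit. Its TAATCC lies in the same peak but 420 bp from that summit, and 0 lay within 150 bp of it. The TAATCC of the *Rlbp1* element lies in bases that the genome file marks as repeats, which are 134 of the 300 bases shown. Over whole peaks, TAATCC was present in 8 of the 26 Otx2 peaks of the 8 windows, or 30.8%, beside 28.6% of the 29115 Otx2 peaks of the whole list. CAGATG was present in 2 of the 3 Neurod1 peaks of the windows, beside 58.2% of the 4744 peaks of the Neurod1 list, and in 11 of the 26 Otx2 peaks (42.3%, beside 37.9%). Within 150 bp of the summit, TAATCC was near 6 of the 26 Otx2 summits (23.1%, beside 18.3% of the list), while CAGATG was near 3 of them (11.5%, beside 22.3%) and near 0 of the 3 Neurod1 summits (52.3% of that list). A match describes the sequence only, and the absence of these letters says nothing about the factors.

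Counting a peak by any base within 1 kb of a TSS, H3K27ac peaks lay at 6 of the 8 promoters, beside 22.6% of all protein-coding genes. H3K4me1 peaks lay at 8 (63.6% of all genes), H3K4me3 peaks at 6 (56%), Otx2 peaks at 7 (51%), and a Neurod1 peak at 1 (5.76%). Counted by the summit instead, H3K27ac and H3K4me1 each lay at 4 promoters, and H3K4me3, Otx2, and Neurod1 kept their counts. At the most upstream protein-coding TSS alone, H3K27ac lay at 5 members and H3K4me1 at 7, and the other counts were unchanged. The shares of all genes above are by any base and any TSS, so neither of these other counts can be set beside them. The members had from 1 annotated TSS (*Kcnj10*) to 10 (*Apoe*), and the shares were not matched for the number of TSSs. The 2 genes without an H3K4me3 promoter peak were *Aqp4* and *Clu*. In whole retina, a peak in few cells and a weak signal in many cells cannot be told apart.

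**Figure D1:**
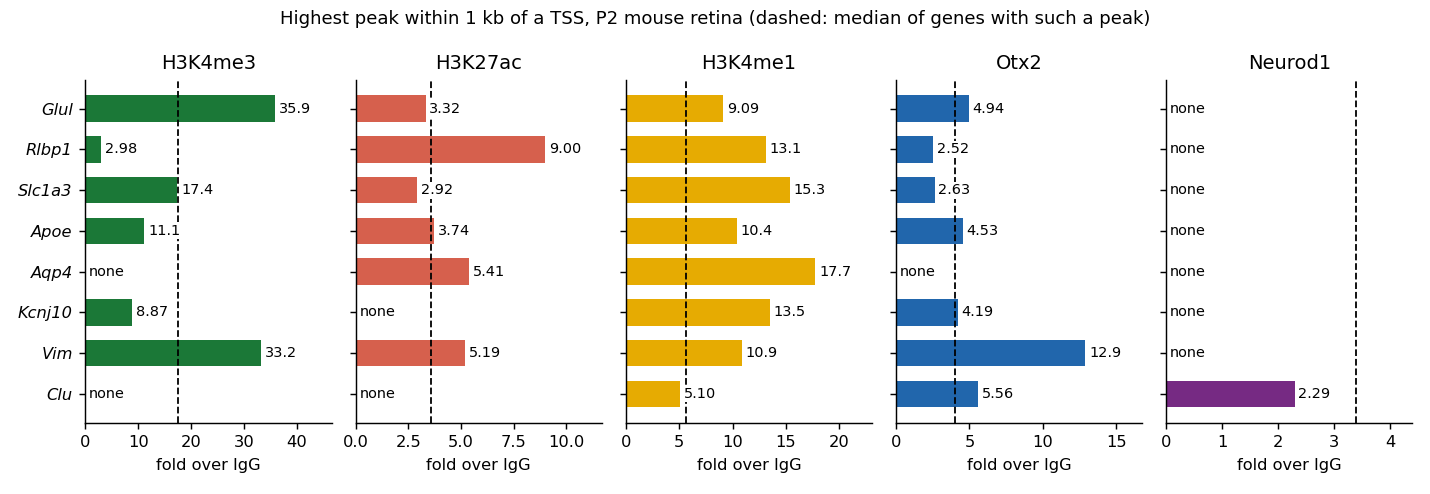
Highest fold enrichment over IgG of a peak within 1 kb of a TSS of each Müller glia gene, 1 panel per target with its own linear axis, 1 pooled value per bar and no error. The dashed line is the median over all protein-coding genes with such a peak. Internal TSSs are included, and the *Aqp4* bars come from these alone. H3K4me3 ran from 2.98 at *Rlbp1* to 35.9 at *Glul*, with none at *Aqp4* and *Clu*, and the Otx2 fold of *Vim*, 12.9, was the highest of the 8.

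The promoter folds of the 8 genes were spread widely. The median H3K4me3 fold of the 6 members with a peak was 14.3, beside 17.5 over all genes with an H3K4me3 promoter peak. The median H3K27ac fold was 4.47 beside 3.58, that of H3K4me1 was 12 beside 5.64, and that of Otx2 was 4.53 beside 3.99. Some of these folds came from peaks at internal TSSs, over 1 kb from the most upstream protein-coding TSS. These were the H3K27ac and H3K4me1 folds of *Aqp4* and *Glul* and the H3K4me1 fold of *Clu*. The H3K4me1 fold was above the median of all genes at 7 of the 8 members, with *Clu* at 5.10 as the exception. The H3K4me3 fold was above its median at *Glul* and *Vim* only among the 6.

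The members fell into 4 sets by which targets had a promoter peak. *Glul*, *Rlbp1*, *Slc1a3*, *Apoe*, and *Vim* carried H3K4me3, H3K27ac, H3K4me1, and Otx2 without Neurod1, a set shared by 3446 protein-coding genes (15.7%). *Kcnj10* had the same targets without H3K27ac, as did 5286 genes (24.1%). *Aqp4* carried H3K27ac and H3K4me1 only, a set of 213 genes (0.971%), and *Clu* carried H3K4me1, Otx2, and Neurod1 only, a set of 38 genes (0.173%). The first 2 sets are common among genes, and those of *Aqp4* and *Clu* are rare. Both rare sets are fragile. That of *Clu* needs a Neurod1 peak of 2.29-fold, which was lost with a fold of at least 2.5, and that of *Aqp4* rests on internal TSSs alone.

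The Otx2 promoter peaks of the members have to be read beside H3K4me3. Otx2 peaks lay at 86.4% of all promoters with an H3K4me3 peak and at 5.9% of those without one. All 6 members with an H3K4me3 promoter peak also had Otx2, a share near that of the background. Of the 2 members without H3K4me3, *Clu* had an Otx2 promoter peak and *Aqp4* did not. H3K27ac lay at 37.1% of promoters with H3K4me3 and at 5 of the 6 such members, *Kcnj10* being the exception.

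*Glul* (ENSMUSG00000026473, chr1:153899944-153909723, plus strand) encodes glutamine synthetase, which turns glutamate into glutamine in Müller glia. Its H3K4me3 peak had a fold of 35.9 and spanned 4126 bp, and 88.0% of genes with an H3K4me3 promoter peak had a lower fold. Its 3 H3K27ac promoter peaks were weaker, with folds of 2.26, 3.00, and 3.32. All 3 overlapped the H3K4me3 peak, and no further H3K27ac peak lay in the window. H3K4me1 had 10 peaks in the window, more per 10 kb than at 96.4% of genes, of which the 5 downstream of the gene lay up to 23040 bp from the TSS with folds of 2.54 to 5.05. A single Otx2 peak (4.94-fold) was centred 279 bp upstream of the TSS. The promoter region is shared with *Teddm2*, whose TSS also lay within 1 kb of the H3K4me3 and Otx2 peaks. The same held for the H3K27ac peaks of 2.26-fold and 3.00-fold and for H3K4me1 peaks of 3.14-fold and 9.09-fold. None of these peaks can be assigned to *Glul* alone.

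*Vim* (ENSMUSG00000026728, chr2:13573927-13582826, plus strand) encodes vimentin, an intermediate filament of progenitors and radial glia. It was the other member with a high H3K4me3 fold, 33.2, over 3144 bp. Its Otx2 promoter peak had a fold of 12.9 and a −log10 q of 139, higher than at 99.0% of genes with an Otx2 promoter peak, and was centred 146 bp inside the gene, in the untranslated part of exon sequence. H3K27ac lay upstream of the TSS at 5.19-fold, with its summit 1383 bp away, and a second H3K27ac peak in the gene body had a fold of 2.78. The window held few other peaks, with 2 of H3K4me1 and no more than 2 of any target, and 36.4% of genes had a lower H3K4me1 density. *Vim* thus combined the highest Otx2 fold of the 8 promoters with a window of 7 peaks in all, fewer than any member but *Aqp4*, which had 6.

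*Slc1a3* (ENSMUSG00000005360, chr15:8634124-8710764, minus strand) encodes GLAST, the main glutamate transporter of Müller glia. Its H3K4me3 promoter peak had a fold of 17.4 over 2969 bp, with 49.5% of genes lower, and its 2 H3K27ac promoter peaks had folds of 2.92 and 2.41. The acetylation lay mostly elsewhere, since 20 H3K27ac peaks lay in the window and 16 of them in the gene body, a density above that of 98.2% of genes. The strongest was intronic, spanned 5547 bp, and reached 6.57-fold at 50672 bp from the TSS. It sat inside an H3K4me1 domain of 12392 bp with a fold of 21.8, and another H3K4me1 domain of 13234 bp (15.3-fold) covered the promoter. Its 6 Otx2 peaks were modest, from 2.32-fold to 3.77-fold, and 5 of them lay away from the promoter. No gene other than *Slc1a3* had the nearest TSS to any of these peaks.

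*Rlbp1* (ENSMUSG00000039194, chr7:79374870-79387048, minus strand) encodes CRALBP, the retinaldehyde-binding protein of the visual cycle. Its H3K4me3 promoter peak was barely called, with a fold of 2.98, a width of 298 bp, and a −log10 q of 3.21, and only 0.830% of genes with an H3K4me3 promoter peak had a lower fold. The H3K27ac peak at the same promoter had a fold of 9.0 over 3977 bp, higher than at 98.1% of genes with an H3K27ac promoter peak and the highest H3K27ac fold of any peak in the 8 windows. H3K4me1 covered the promoter over 5633 bp at 13.1-fold. The 2 marks of the promoter therefore ranked at opposite ends, with weak H3K4me3 and strong H3K27ac.

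Otx2 at the *Rlbp1* promoter had a fold of 2.52, with 8.09% of genes lower. A stronger Otx2 peak of 5.93-fold lay at chr7:79390179-79390695, 3478 bp upstream of the TSS, where H3K4me1 (3.17-fold) was the only histone mark with a peak. Its summit is nearer to the TSS of *Fanci*, a neighbour whose promoter, with H3K4me3 of 5.63-fold and Otx2 of 4.81-fold, also fell in the window. Downstream, an H3K27ac peak of 4303 bp (5.91-fold) overlapped *Abhd2*, 24892 bp from the *Rlbp1* TSS. With 9 H3K27ac peaks, the window was denser than that of 98.3% of genes. However, only 1 of the 9 overlapped the *Rlbp1* gene body, and others lay inside *Abhd2* or nearer to the TSS of *Fanci*. The *Rlbp1* TSS was the nearest to 7 of the 9, those inside *Abhd2* among them.

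*Apoe* (ENSMUSG00000002985, chr7:19696109-19699188, minus strand) encodes apolipoprotein E, the lipid carrier made by glia. H3K4me3 had a fold of 11.1 over 1185 bp, with 28.6% of genes lower, and 2 H3K27ac peaks in the gene had folds of 3.74 and 3.33. Otx2 had 2 promoter peaks, of 4.53-fold at 1023 bp inside the gene and of 2.18-fold at 281 bp. The remaining Otx2 peaks of the window, of 3.01-fold and 5.32-fold, lay at the TSSs of *Apoc1* and *Tomm40*, as did an H3K27ac peak of 4.41-fold at *Apoc1*. The Otx2 density of the *Apoe* window exceeded that of 95.3% of genes with these neighbours counted.

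*Kcnj10* (ENSMUSG00000044708, chr1:172341210-172374085, plus strand) encodes Kir4.1, the potassium channel through which Müller glia buffer potassium. Its H3K4me3 promoter peak had a fold of 8.87, with 21.1% of genes lower, and no H3K27ac peak lay within 1 kb of its TSS. Inside the gene were 4 intronic H3K27ac peaks, the first of which began 1212 bp from the TSS, so that it would count at a distance of 2 kb, and the strongest reached 5.76-fold over 4074 bp at 10231 bp. They lay in an H3K4me1 domain of 14082 bp (13.5-fold), the widest peak of any target in the 8 windows. With 19 H3K4me1 peaks, the window was denser than that of 99.3% of genes, but only 5 of the 19 had their summit nearest to the *Kcnj10* TSS, and the others were nearer to *Pigm*, *Kcnj9*, or *Igsf8*.

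Otx2 at the *Kcnj10* promoter had a fold of 4.19 with its summit 21 bp upstream of the TSS. At 51083 bp downstream of the TSS, the element at chr1:172392174-172392436 carried Otx2 (4.29-fold), Neurod1 (2.54-fold), H3K27ac (3.28-fold), and H3K4me1 (8.66-fold) without H3K4me3. It lies beyond *Pigm*, whose promoter had H3K4me3 of 13.0-fold and Otx2 of 3.90-fold, and its nearest TSS is that of *Pigm*.

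*Aqp4* (ENSMUSG00000024411, chromosome 18, bases 15389496 to 15410982, minus strand) encodes aquaporin-4, the water channel of Müller glial endfeet. The window held no peak of H3K4me3, Otx2, or Neurod1. It held 1 H3K27ac peak of 5.41-fold, in an intron 4152 bp inside the gene, and 5 H3K4me1 peaks of 3.89-fold to 24.3-fold. The H3K4me1 peak of 24.3-fold had its summit 20531 bp upstream of the TSS and reached into the window by its edge. Its fold was the highest of H3K4me1 in the 8 windows, with 99.4% of the H3K4me1 list lower. It also overlapped an H3K27ac peak, which lay outside the window and is not counted. The H3K4me1 peak over the intronic H3K27ac peak had a fold of 17.7. The H3K27ac peak and 3 of the H3K4me1 peaks counted as promoter peaks through an internal TSS only, since no peak lay within 1 kb of the most upstream protein-coding TSS. *Aqp4* was the only member with H3K4me1 and H3K27ac and no other target in its window.

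*Clu* (ENSMUSG00000022037, chr14:65968483-65981547, plus strand) encodes clusterin, a secreted chaperone. Its promoter had no H3K4me3 and no H3K27ac peak, and its H3K4me1 promoter peaks were of 3.69-fold and 5.10-fold, below the median of all genes with such a peak. Otx2 nevertheless had a peak of 5.56-fold, centred 193 bp upstream of the TSS, with 77.9% of genes lower. Neurod1 had an overlapping peak of 2.29-fold, with 6.18% of genes lower. Some 32408 bp downstream of the TSS, inside an intron of *Gulo*, the element at chr14:66000403-66001283 carried Otx2 at 12.8-fold, higher than 99.0% of the Otx2 list. The same element overlapped peaks of Neurod1 (2.23-fold), H3K27ac (2.76-fold and 2.53-fold), and H3K4me1 (9.68-fold), and its nearest TSS is that of *Gulo*. H3K27ac density in the window exceeded that of 90.0% of genes. However, all 4 H3K27ac peaks lay in introns of *Gulo*, 0 lay in the *Clu* gene body, and only 1 was nearest to the *Clu* TSS. The window's single H3K4me3 peak, of 5.68-fold, lay at the TSS of *Scara3*, and the *Clu* window was the only one of the 8 with 2 Neurod1 peaks.

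**Figure D2:**
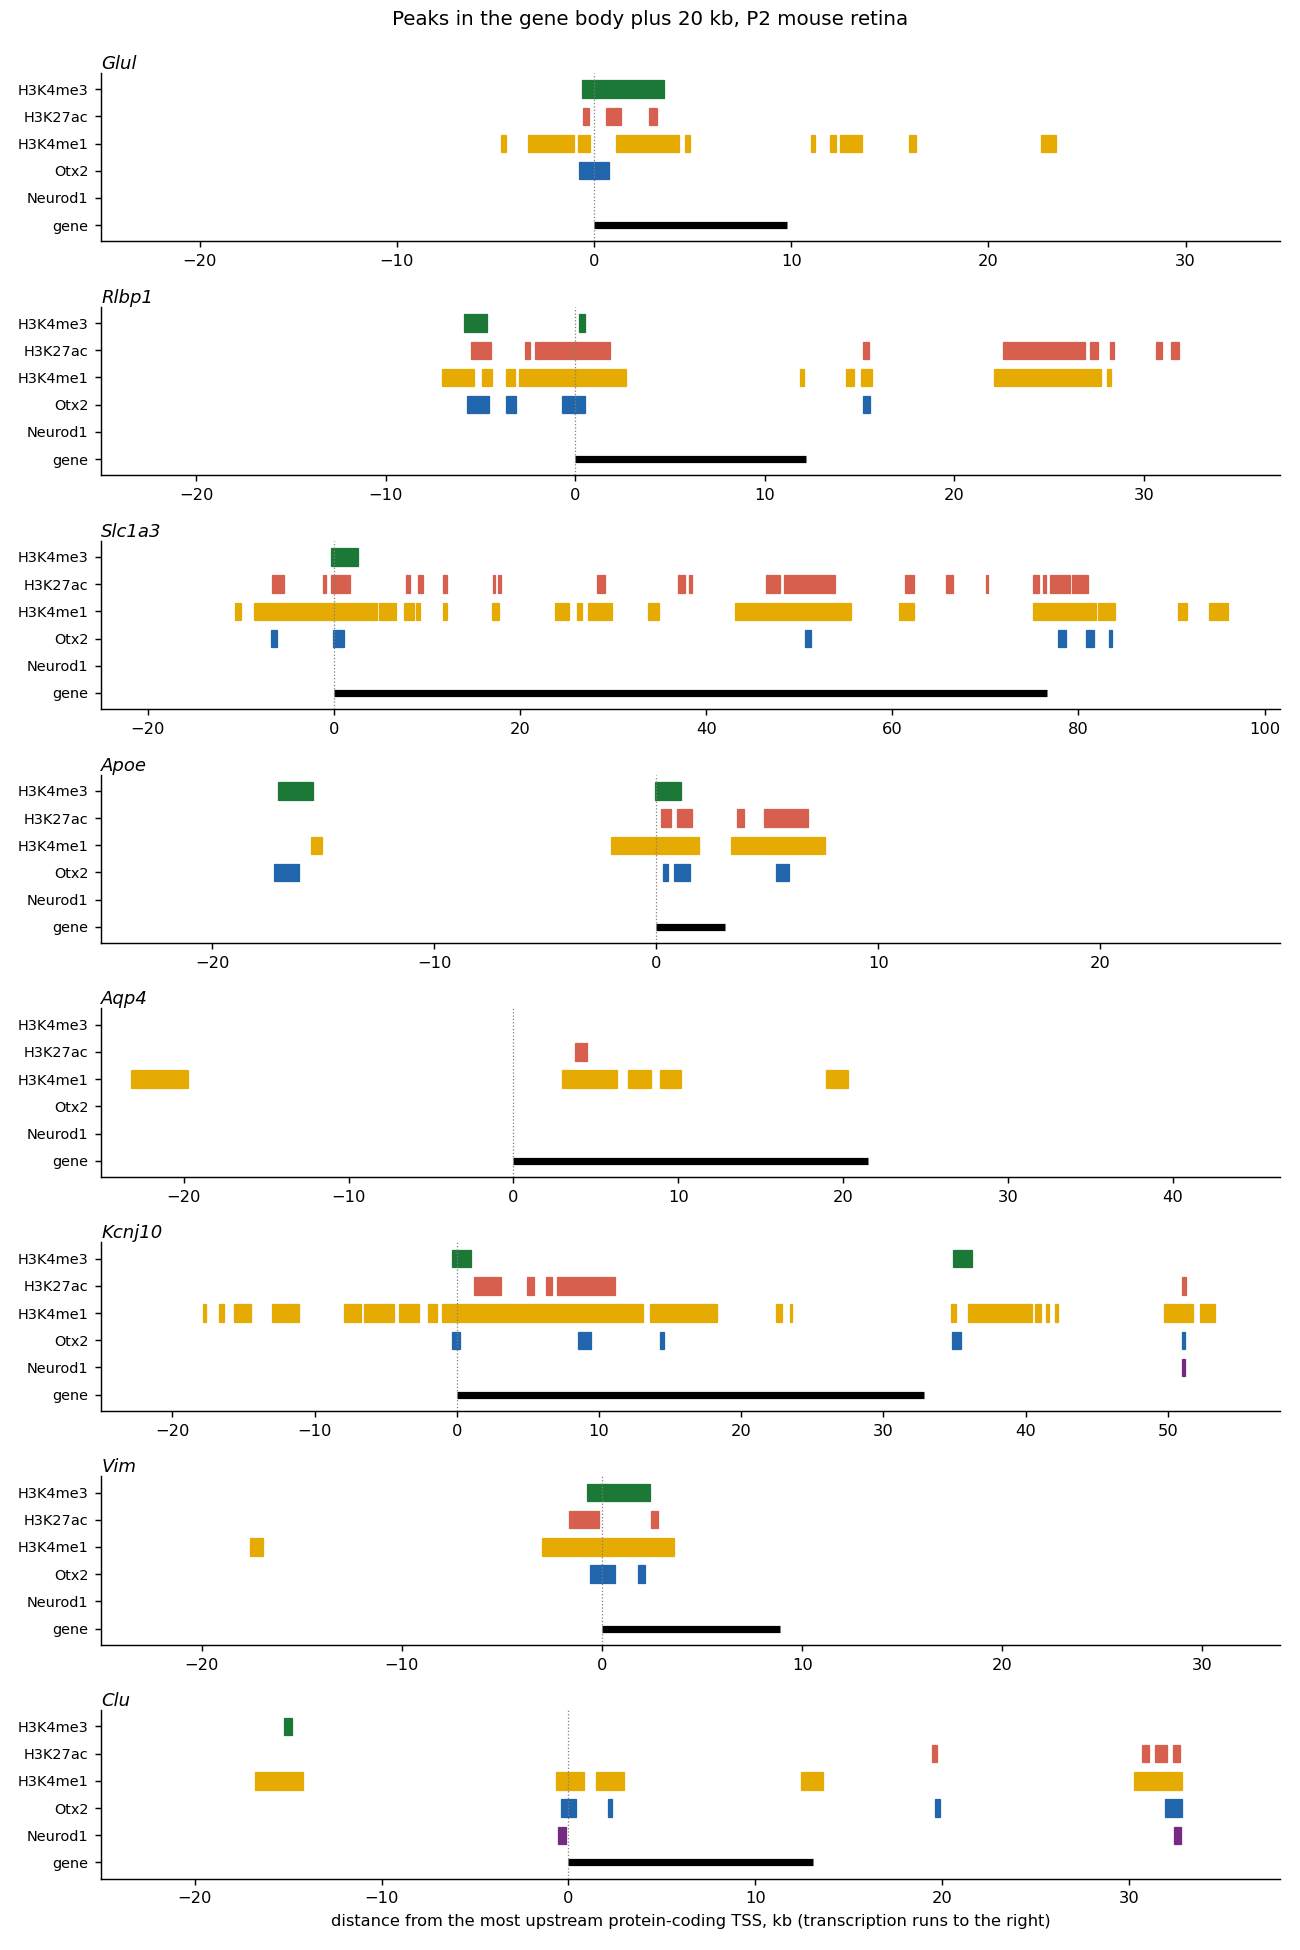
Peaks of the 5 targets in the window of each Müller glia gene, drawn to scale, 1 lane per target, against the distance in kb from the most upstream protein-coding TSS (dotted line), with transcription running to the right and the gene as a black bar. Bars show where peaks lie and not their height. *Slc1a3* has 20 H3K27ac peaks and *Aqp4* 1, and the 3 Neurod1 peaks lie at *Kcnj10* and *Clu*.

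Over the whole windows, the 8 genes had 10 H3K4me3, 48 H3K27ac, 70 H3K4me1, 26 Otx2, and 3 Neurod1 peaks. At least 1 H3K27ac peak lay in 8 of the 8 windows, beside 53.7% of all genes, and the same held for H3K4me1 (81.2%). H3K4me3 and Otx2 each had a peak in 7 windows, all but that of *Aqp4* (66.6% and 69.9% of all genes), and Neurod1 in 2 (19.4%). Some of these peaks lay at the TSS of a neighbour and not of the member, namely 4 of H3K4me3, 2 of H3K27ac, 8 of H3K4me1, and 4 of Otx2.

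Scaled by window length, the ratio to other genes was highest for H3K27ac. Its median was 0.720 peaks per 10 kb over the 8 members, beside 0.106 over all protein-coding genes. All 8 members were above that median, with peaks nearer to other genes counted. The median was low because only 53.7% of genes had any H3K27ac peak in their window. The 1 peak of *Aqp4*, 0.163 per 10 kb, was enough to pass it, so this count adds little to the 8 of 8 windows above. The lowest member was *Aqp4*, above 56.1% of genes, and the highest was *Rlbp1*. For Otx2 the medians were 0.60 and 0.186, for H3K4me1 1.20 and 0.616, and for H3K4me3 0.203 and 0.135, with 7, 7, and 6 members above the median of all genes. The lower H3K4me1 member was *Vim*, and the lower H3K4me3 members were *Slc1a3* and *Aqp4*. Among genes with an H3K4me3 promoter peak, the members above the median were 7 for H3K27ac, with *Aqp4* at 39.2%, 6 for Otx2, 5 for H3K4me1, and 3 for H3K4me3. By covered bases they were 8, 7, 8, and 6. These are counts of called peaks in 1 list per target, and their spread between replicates is not known.

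**Figure D3:**
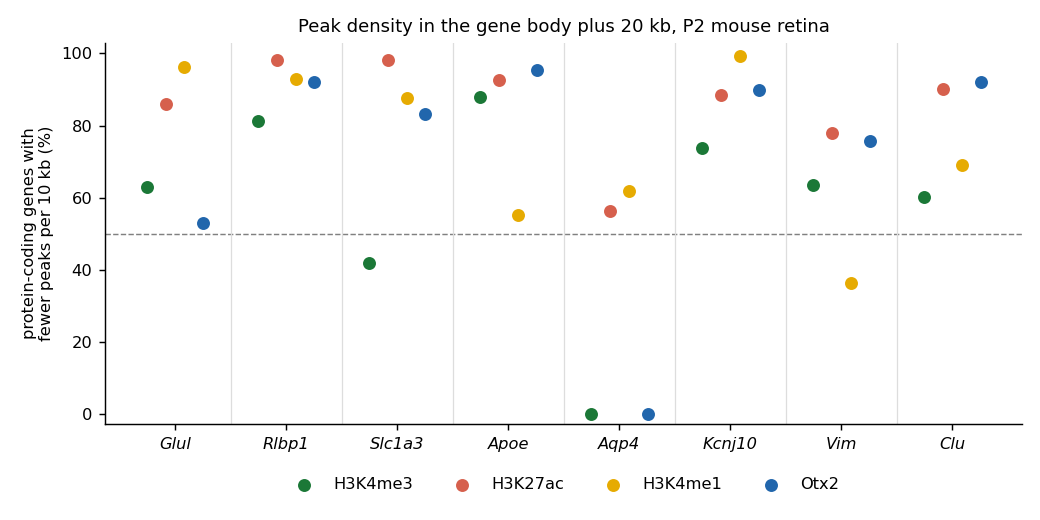
Rank of each Müller glia gene by peaks per 10 kb of its window, given as the percent of 21938 protein-coding genes with a lower density, for 4 targets (dashed line at 50%). Peaks in or nearer to neighbouring genes are counted. H3K27ac lies above the line at all 8 genes, from 56.1% at *Aqp4* (39.2% when ranked among genes with an H3K4me3 promoter peak) to 98.3% at *Rlbp1*, while *Aqp4* stands at 0 for H3K4me3 and Otx2, and *Vim* at 36.4% for H3K4me1.

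The kinds of site that Otx2 occupied were compared by the histone peaks beneath them. Of the 26 Otx2 peaks in the windows, 11 overlapped H3K4me3 (42.3%, beside 43.3% of the whole Otx2 list), 10 overlapped H3K27ac without H3K4me3 (38.5% beside 22.6%), and 5 overlapped H3K4me1 only (19.2% beside 26.9%). None lay outside the histone peaks, where 7.20% of the list did. Of the 3 Neurod1 peaks, 2 lay in H3K27ac without H3K4me3 and 1 in H3K4me1 only, and each overlapped an Otx2 peak. All 3 were weak for their list, since 1.62% to 7.61% of Neurod1 peaks had a lower fold and their −log10 q ran from 1.65 to 2.05. Of the 48 H3K27ac peaks, 9 overlapped H3K4me3 (18.8%, beside 7.57% of the H3K27ac list). The lists cover peaks anywhere in the genome, but the member peaks come from windows around genes, so these shares have unlike bases. *Slc1a3* alone gave 6 of the 26 Otx2 peaks.

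The base composition of the starts was not used to choose the genes. The ratio of observed to expected CpG within 500 bp of the main TSS was 0.697 at *Glul*, 0.648 at *Kcnj10*, 0.554 at *Slc1a3*, and 0.523 at *Vim*. It was 0.477 at *Clu*, 0.380 at *Apoe*, 0.267 at *Aqp4*, and 0.261 at *Rlbp1*. Over all genes the median was 0.744 with an H3K4me3 promoter peak and 0.208 without one, and H3K4me3 was found at 84.1% of genes with a ratio of at least 0.4 and at 11.2% of those below. Of the members, 4 of the 5 at or above 0.4 and 2 of the 3 below it carried H3K4me3. With so few genes, these counts cannot tell whether the members depart from the shares of all genes. The *Rlbp1* peak among them was weak, at 2.98-fold. *Apoe* and *Rlbp1* carried it below 0.4, and *Clu* did not carry it above.

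Other gene lists of the same tissue were counted for context. Of 14 regulators of glial fate, among them *Sox9*, *Hes1*, and *Nfia*, which act in progenitors as well, all 14 had H3K4me3, H3K4me1, and Otx2 promoter peaks, 10 had H3K27ac, and *Notch1* alone had Neurod1 (2.12-fold). Their median H3K4me3 fold was 42.0, and their highest Otx2 fold was that of *Notch1*, 9.40. Of 12 further effector genes of glia, 8 had H3K4me3 with a median fold of 18.7, 6 had H3K27ac, 11 had H3K4me1, 7 had Otx2, and 0 had Neurod1. The 4 effectors without H3K4me3 were *Gfap*, an intermediate filament of reactive glia, *Abca8a*, *Mlc1*, and *Rgr*, an opsin of the visual cycle. The effectors and the 8 Müller glia genes thus both held genes with and without the mark, whereas the regulators held none without it. No difference between lists was tested.

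Rod and progenitor genes gave the other references. Of 18 rod phototransduction genes, 11 had H3K4me3 with a median fold of 5.19, 6 had H3K27ac, 15 had H3K4me1, 12 had Otx2, and 2 had Neurod1, *Sag* (5.73-fold) and *Rom1* (2.38-fold). The highest Otx2 folds among them were those of *Sag* (12.1) and *Cnga1* (12), close to the 12.9 of *Vim*. Of 10 progenitor and cell cycle genes, 10 had H3K4me3 with a median fold of 55.7, 6 had H3K27ac, 10 had H3K4me1, 9 had Otx2, and 1, *Mcm2*, had Neurod1 (4.14-fold). The H3K4me3 median of the Müller glia genes, 14.3, lay between those of the rod genes and the progenitor genes.

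**Figure D4:**
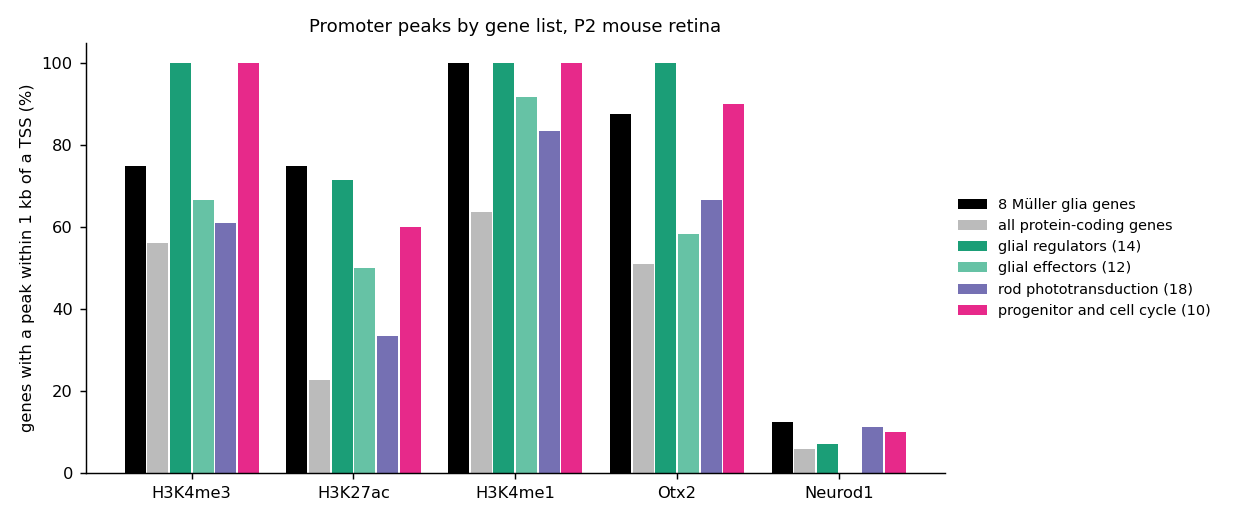
Percent of genes with a peak within 1 kb of a TSS, by target, for the 8 Müller glia genes, all 21938 protein-coding genes, and 4 further lists with their number of genes in brackets. The glial regulators and the progenitor genes stand at 100% for H3K4me3, the Müller glia genes at 6 of 8, and every list is low for Neurod1.

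The tissue was checked by promoter peaks of cell type markers. H3K4me3 and H3K27ac lay at 8 of 8 neural retina markers. H3K4me3 lay at 0 of 4 markers for each of pigment epithelium, lens, endothelium, microglia, astrocytes, and liver and heart, and H3K27ac only at *P2ry12* of microglia. H3K4me1 was less selective and lay at 4 of 4 endothelial markers, at 3 of 4 for lens and astrocytes, and at 1 of 4 for each of the others. Otx2 lay at 7 of 8 neural retina markers and, among the others, at *Best1* of pigment epithelium only, and Neurod1 at 2 of 8 and at none of the others. *Apoe*, *Clu*, *Slc1a3*, *Aqp4*, *Kcnj10*, *Vim*, and *Glul* are also used by astrocytes, and *Apoe* and *Vim* by microglia and vessels, and the part of these cells in their peaks was not tested.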

How the data were processed

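CUT&RUN peak lists for H3K4me3, H3K27ac, H3K4me1, Otx2, and Neurod1 in P2 mouse retina were used, and the 5 lists from 13LGS were not used here. According to the paper's methods and the submitters' processing notes, the authors trimmed reads with cutadapt 3.5 and Trim Galore 0.6.4, used Bowtie2 to align them to GRCm38, dropped reads of low mapping quality and duplicates, combined technical replicates, and called peaks for each target with macs2 over all its libraries, with IgG as control and a q-value of 0.05, leaving out mitochondrial and blacklisted regions. The fold enrichment over IgG, a ratio, and the −log10 q-value of each peak were used as deposited by the authors. Merged calling leaves no spread between replicates and no read depth, and a target with more libraries can yield more peaks.

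Genes and TSSs came from GENCODE M21 (protein-coding genes on chromosomes 1 to 19, X, and Y), and sequences from the RefSeq copy of GRCm38. An overlap was at least 1 bp. Percentiles give the percent of protein-coding genes (for folds, of genes with a promoter peak of the target) or of list peaks with a lower value, as descriptions. The main TSS was the most upstream one of a protein-coding transcript. Every peak in the windows is counted, the 8 genes are named throughout, and genes of other lists are named where they lack H3K4me3 or have the highest Otx2 or Neurod1 folds. The 8 genes and the lists were chosen with earlier results of these data known. The scripts used numpy 2.4.6, pysam 0.24.0, pandas 2.3.3, and matplotlib 3.10.9 under Python 3.11.15. On 2000 simulated windows, the counts of overlaps differed from those of bedtools 2.31.1 at 0 windows. The alternatives tried were other distances, flanks, peak thresholds, TSS sets, merged peaks, covered bases, and motif windows.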

Additional observations from a re-analysis of the deposited data

How the results depend on the processing

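Of 69 alternative values for the counts above, 51 stayed within 1.5 times the value reported. Without the flanks, the windows held 6 H3K4me3, 27 H3K27ac, 30 H3K4me1, 13 Otx2, and 0 Neurod1 peaks. With flanks of 50 kb, they held 121 H3K4me1, 44 Otx2, and 8 Neurod1 peaks. At a −log10 q threshold of 5, they held 20 H3K27ac and 0 Neurod1 peaks, the Neurod1 promoter count fell to 0, and *Rlbp1* lost its H3K4me3 promoter peak, leaving 5 genes. With a fold of at least 2.5, 1 Neurod1 peak was left in the windows and 0 at promoters. Counting only peaks whose nearest TSS was the member's left 5 H3K4me3 peaks and 1 Neurod1 peak. With the summit within 1 kb of a TSS, H3K4me1 and H3K27ac counted at 4 promoters each, and a distance of 2 kb brought H3K27ac to 7. No share of all genes is given for these settings. Within 150 bp of the summit, 3 Otx2 peaks and 0 Neurod1 peaks had CAGATG, beside 22.3% and 52.3% of their lists. Of 80 ranks by density under covered bases or among genes with an H3K4me3 promoter peak, 16 were fixed at 0 by windows without a peak, and 40 of the other 64 moved by under 10 percentile points. By covered bases, H3K4me3 moved to 60.5% at *Slc1a3* and 39.7% at *Clu*, and H3K4me1 to 81.0% at *Vim*. Among genes with H3K4me3, its own ranks at *Glul* (45.1%), *Vim* (46.1%), and *Clu* (41.8%), those of H3K4me1 at *Apoe* (38.4%) and *Aqp4* (47.0%), and that of Otx2 at *Glul* (34.8%) fell below 50%. The number of animals and the unknown read depth limit all counts, and an absent peak means that none was called at this depth. No paired analysis was possible because each target had 1 list called over its replicates.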
